A study of Mus musculus with 32 samples.

Results

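The genes described here are those that report on, or carry, signaling through the Smad1/5 branch of the TGF-β family in YUMM3.3 cells: the 4 Id genes Id1, Id2, Id3 and Id4, the receptor-activated Smads Smad1, Smad5 and Smad9, and the inhibitory Smad Smad6. They were chosen by name, through the Ensembl identifier of each row, and all 8 were found among the 12451 genes of the count table. YUMM3.3 is a Braf-mutant mouse melanoma cell line, and every sample was a well of this 1 line, so that p-values measure the spread between wells of 1 line. Cells were left untreated (NT), or received Activin-A (ActA; 40 ng/ml in the sample labels, a dose on which the sources used here differ), 20 ng/ml IFN-γ (IFNy) or both factors (ActA_IFNy), and RNA was taken after 4 or 12 hrs from 4 wells of each of these 8 groups, 32 wells in all. mRNA was measured by BRB-seq, in which cDNA of each well is barcoded, wells are pooled and the 3′ ends of transcripts are counted. The question asked of these genes was whether Activin-A touches the Smad1/5 branch, with and without IFN-γ.

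Bone morphogenetic proteins (BMPs) bind type I and type II receptor kinases, which phosphorylate Smad1, Smad5 and Smad9. These join Smad4 in the nucleus and turn on, among others, the Id genes, whose products lack a DNA-binding domain and hold E proteins and related basic helix-loop-helix factors away from DNA. Activin-A signals through type II receptors that it shares with BMPs, but its own type I receptor phosphorylates Smad2 and Smad3. Smad6, itself a BMP target, feeds back preferentially on the Smad1/5 branch, whereas Smad7 restrains both. Id mRNAs are a common readout of BMP activity in cultured cells, although serum and other stimuli move them too.

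Totals were between 654539 and 1455074 counts per well, with a median of 988019.5. A floor of 3 counts, which covers counting error only, corresponded to between 1.97 and 4.56 CPM, the count scaled to library size with TMM factors. All 7 melanocyte lineage markers were listed, with Pmel at a mean of 123 CPM, Tyrp1 at 90.7, Dct at 73.2 and Mlana at 56.1. The others were low: Sox10 was at 15.2 CPM (8 to 30 counts), Tyr at 12.4 (6 to 21) and Mitf at 7.55 (2 to 13). Of the leukocyte markers, Ptprc had 0 to 5 counts and Cd68 0 to 13, and Cd3e and Itgam were not among the listed genes. Of the endothelial markers, 0 of 3 were listed, and of the fibroblast markers Pdgfra had 5 to 22 counts, Pdgfrb 0 to 13 and Dcn 0 to 8. One library, replicate 1 of Activin-A at 4 hrs, stood apart: its chi-square per gene against wells of its own group was 2.45 to 2.89, compared to 1.16 to 1.54 for the other pairs, and the Activin-A values of the 6 tested genes at 4 hrs were also computed without it.

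The regions just upstream of the Id genes are shown because the GC-rich word GGCGCC is a known element for Smad1/5 complexes and the Id genes are the readout described here. The 250 bases before the annotated start were taken from RefSeq on GRCm38.p6, a build other than that of the counts, for 7 of the 8 genes. The set of upstream sequences used here held none for Id1. The windows are written 5′ to 3′ on the gene's strand, with GGCGCC in capitals. Id2 lies on the minus strand at chr12:25096093-25096342, Id3 on the plus strand at chr4:136143572-136143821 and Id4 on the plus strand at chr13:48260866-48261115.
Id2: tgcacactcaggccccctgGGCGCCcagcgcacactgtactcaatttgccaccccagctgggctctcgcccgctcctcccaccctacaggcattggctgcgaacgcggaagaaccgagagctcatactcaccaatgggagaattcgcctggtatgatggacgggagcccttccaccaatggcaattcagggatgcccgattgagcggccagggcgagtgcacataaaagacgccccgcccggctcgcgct
Id3: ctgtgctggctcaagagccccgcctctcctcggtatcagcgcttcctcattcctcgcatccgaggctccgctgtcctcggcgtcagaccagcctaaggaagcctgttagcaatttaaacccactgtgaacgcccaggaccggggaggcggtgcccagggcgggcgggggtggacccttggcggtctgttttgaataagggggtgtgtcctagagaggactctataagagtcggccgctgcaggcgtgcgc
Id4: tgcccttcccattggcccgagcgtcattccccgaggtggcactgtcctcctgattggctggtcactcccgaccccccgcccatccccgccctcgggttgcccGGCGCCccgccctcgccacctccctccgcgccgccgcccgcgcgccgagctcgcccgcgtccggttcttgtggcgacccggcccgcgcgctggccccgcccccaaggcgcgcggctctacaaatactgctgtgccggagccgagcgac

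GGCGCC, which reads the same on both strands, occurred once in the window of Id2, 231 bases before the start, and once in that of Id4, 148 bases before it. It was not found in the windows of Id3, Smad1 or Smad6. Smad9 held it 51 bases before the start, and Smad5 19 bases before 1 of its 3 annotated starts. Of all 32851 windows of this length, 9.59% hold the word. The Smad-binding word CAGAC, searched on both strands, occurred at 2 places in the Id3 window, in neither of those of Id2 and Id4, and in 42.2% of all windows. The STAT-type word TTCNNNGAA was in 7.02% of windows and in none of those of these 7 genes. A match is a description of letters in the window, and elements farther away were not searched.

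Id3 had between 187 and 548 counts in every well and was measured with more reads than the other 7 genes. At 12 hrs it had 266, 292, 250.4 and 229 CPM in untreated wells and 216, 180, 196 and 241 CPM in wells with Activin-A. Of these, 3 Activin-A wells were the lowest of all 32 wells for this gene, and the groups overlapped through a single well, Activin-A replicate 4, which lay above the lowest untreated well. On the fitted scale, Id3 fell with Activin-A by 0.33 (log2FC, SE 0.081, 95% interval -0.50 to -0.17, edgeR quasi-likelihood adjusted p = 0.00581), which is a decrease of 20.7%. It was the 1 gene called of the 6 that could be tested here, beside 1.16% of all 8971 tested genes that were called and lower in this comparison and 2.41% called in either direction. The call held in the 6 alternative fits (adjusted p = 0.00239 to 0.0405) and was lost without untreated replicate 2 (log2FC -0.27, adjusted p = 0.0924) or without Activin-A replicate 2 (log2FC -0.27, adjusted p = 0.0818), which held the highest and the lowest value of the 8 wells.

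At 4 hrs Id3 was at 396, 447, 410 and 374 CPM in untreated wells and at 290.2, 325, 368.5 and 396 CPM with Activin-A. The lowest of these values came from the library that stood apart, and the groups overlapped in their upper and lower wells. The log2FC was -0.24 (95% interval -0.40 to -0.07), which missed the threshold (edgeR adjusted p = 0.146, alternatives 0.0979 to 0.462). None of the 6 tested genes was called here by edgeR or DESeq2, and Id3 was the 1 gene with an unadjusted p below 0.05 by either, beside 11.3% of all tested genes at an unadjusted p below 0.05 with edgeR and 1.64% called. Without the library that stood apart it was -0.15 (adjusted p = 0.485), and without Activin-A replicate 4 it was -0.31 and passed (adjusted p = 0.0345).

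In the presence of IFN-γ the lower level of Id3 was not seen. At 12 hrs Id3 was at 283, 268, 306 and 271 CPM with IFN-γ alone and at 352, 303, 284.5 and 332 CPM with both factors, a log2FC of 0.18 (95% interval 0.02 to 0.33, adjusted p = 0.387). At 4 hrs it was at 456, 427, 406 and 467 CPM with IFN-γ and at 419.9, 386, 470.2 and 445 CPM with both, a log2FC of -0.04 (adjusted p = 0.949). The difference between the Activin-A effects with and without IFN-γ was itself tested. At 12 hrs it was 0.51 on the log2 scale (SE 0.11, 95% interval 0.29 to 0.73, unadjusted p = 1.55e-05), which ranked 2 of 8971 genes by p and missed the threshold (edgeR adjusted p = 0.0651). Only 1 gene passed in that comparison, 0.0111% of those tested: Cth, the cystathionine cleaving enzyme, with a log2 interaction of -1.02, named after its value was seen. The Id3 interaction passed without a filter on low counts (adjusted p = 0.0156) but not with DESeq2 (adjusted p = 0.676), and in 5 of 16 fits that left out a well: untreated replicate 4, Activin-A replicate 4, IFN-γ replicate 3, or replicate 2 or 3 of both factors, with adjusted p = 0.0112 to 0.0257; over the alternatives it was 0.0156 to 0.676. At 4 hrs it was 0.20 (95% interval -0.03 to 0.43, adjusted p = 0.927).

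In order of mean level, Id3 was at 439 CPM with IFN-γ at 4 hrs (SD 27.7, n = 4), 430.4 with both factors at 4 hrs (SD 36.0), 407 untreated at 4 hrs (SD 30.7), 345 with Activin-A at 4 hrs (SD 46.8), 318 with both at 12 hrs (SD 30.0), 282 with IFN-γ at 12 hrs (SD 17.2), 259 untreated at 12 hrs (SD 26.5) and 208 with Activin-A at 12 hrs (SD 26.5). Wells of neighbours in this order overlapped in every case.

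**Figure D1:**
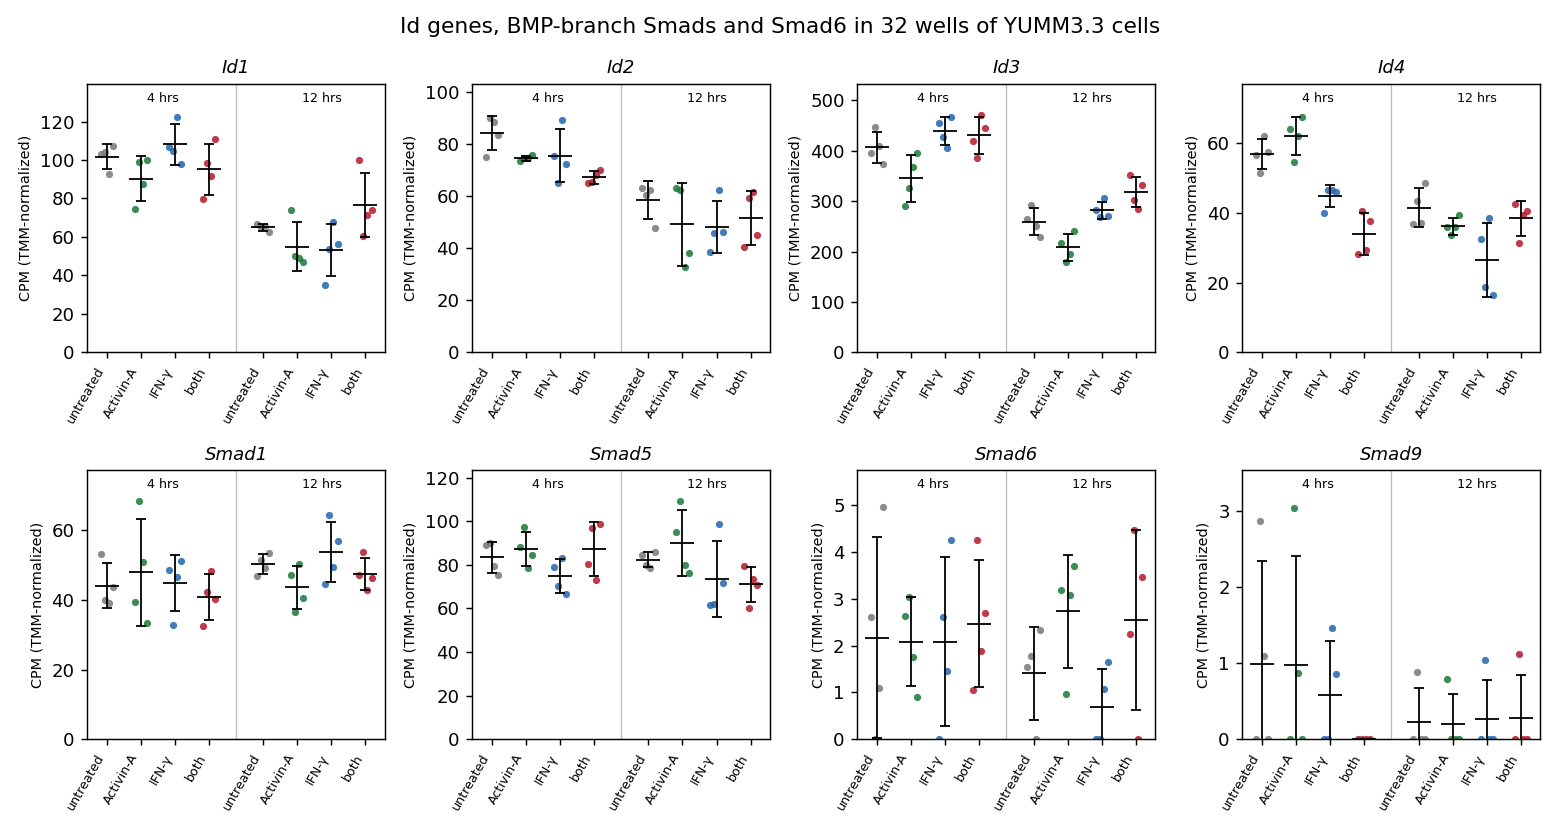
CPM of the 8 genes in 32 wells by group, with 4 and 12 hrs side by side; points are wells, horizontal bars are means and error bars are SD (n = 4), with bars that reach below 0 not drawn there. The Id genes sit lower at 12 hrs than at 4 hrs in most groups, Smad1 and Smad5 overlap between the times, and Smad6 and Smad9 sit at or near 0, with at most 5 counts in a well.

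Id1, which like Id3 is a standard BMP readout, was lower with Activin-A alone by amounts that did not pass the test. At 4 hrs it was at 103, 104, 92.7 and 107 CPM in untreated wells and at 74.7, 98.8, 87.5 and 99.98 CPM with Activin-A (log2FC -0.20, 95% interval -0.43 to 0.03, adjusted p = 0.549). Without the library that stood apart, Activin-A replicate 1, it was -0.10 (adjusted p = 0.845). At 12 hrs it was at 66.8, 65.0, 65.6 and 62.7 CPM untreated and at 74.2, 49.9, 49.3 and 46.7 CPM with Activin-A (log2FC -0.21, 95% interval -0.51 to 0.08, adjusted p = 0.650). At 12 hrs 3 of the 4 Activin-A wells lay below every untreated well, and replicate 1 lay above all of them. Without replicate 1 the log2FC at 12 hrs was -0.41 (adjusted p = 0.255).

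In the presence of IFN-γ the log2FC of Id1 at 12 hrs was above 0. Id1 was at 34.9, 54.0, 67.6 and 56.1 CPM with IFN-γ alone and at 99.8, 60.4, 71.4 and 74.0 CPM with both factors, with an overlap in the middle wells. The log2FC was 0.51 (SE 0.15, 95% interval 0.21 to 0.81), an increase of 42.1%, which missed the threshold (edgeR adjusted p = 0.0863, alternatives 0.0426 to 0.219). It passed without the filter on low counts, and without IFN-γ replicate 3 (log2FC 0.64, adjusted p = 0.0213) or without replicate 2 of both factors (log2FC 0.60, adjusted p = 0.0315). The interaction at 12 hrs was 0.72 (95% interval 0.30 to 1.14, unadjusted p = 0.000964, adjusted p = 0.258), and at 4 hrs it was 0.04 (95% interval -0.29 to 0.36). At 4 hrs Id1 was at 107, 105, 123 and 97.9 CPM with IFN-γ and at 79.6, 98.4, 91.8 and 111 CPM with both (log2FC -0.16, adjusted p = 0.733).

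Id4, which differs from the other Id proteins in its tissue distribution, was the 1 gene of the 6 called with IFN-γ. At 12 hrs it was at 36.8, 43.6, 37.2 and 48.8 CPM untreated and at 32.5, 18.7, 38.6 and 16.5 CPM with IFN-γ, so that 2 wells were far below the untreated range and 1 well lay within it. Id4 fell with IFN-γ by 0.68 (log2FC, SE 0.19, 95% interval -1.06 to -0.30, edgeR adjusted p = 0.00964), a decrease of 37.5%, beside 2.82% of all tested genes called and lower and 9.25% called in either direction. The call was lost with DESeq2 (log2FC -0.68, adjusted p = 0.0795; alternatives 0.00676 to 0.0795), without IFN-γ replicate 2 (log2FC -0.56, adjusted p = 0.0753) and without IFN-γ replicate 4 (log2FC -0.48, adjusted p = 0.159). At 4 hrs the IFN-γ wells, at 40.1, 46.8, 46.7 and 46.0 CPM, all lay below the untreated wells, at 56.7, 51.6, 62.2 and 57.6 CPM, but the log2FC of -0.33 did not pass (adjusted p = 0.293). None of the 6 genes was called with IFN-γ at 4 hrs by edgeR or DESeq2 (1 at an unadjusted p below 0.05 with edgeR, 0 with DESeq2), beside 13.3% of all tested genes at an unadjusted p below 0.05 with edgeR and 5.06% called, and 3.32% of tested genes were lower in all IFN-γ wells in this way.

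With Activin-A alone Id4 was not called. At 4 hrs the Activin-A wells were at 64.2, 54.7, 62.2 and 67.6 CPM (log2FC 0.15, 95% interval -0.12 to 0.42, adjusted p = 0.743), and at 12 hrs at 35.9, 33.6, 35.9 and 39.4 CPM (log2FC -0.20, 95% interval -0.55 to 0.15, adjusted p = 0.746). On IFN-γ, Id4 was at 28.3, 40.7, 29.3 and 37.6 CPM with both factors at 4 hrs (log2FC -0.39 against IFN-γ, adjusted p = 0.344) and at 42.6, 31.3, 39.6 and 40.5 CPM at 12 hrs (log2FC 0.58, 95% interval 0.18 to 0.98, adjusted p = 0.190). Without IFN-γ replicate 3 the latter was 0.83 and passed (adjusted p = 0.0299). The interaction was -0.54 at 4 hrs (unadjusted p = 0.0116, adjusted p = 0.824) and 0.78 at 12 hrs (unadjusted p = 0.00467, adjusted p = 0.428). Of the 4 wells with both factors at 12 hrs, 3 lay within the range of untreated wells and replicate 2 lay below it. Id4 reads could not be told from 2 antisense transcripts that overlap it where strand was not used in counting; neither was among the listed genes.

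Id2, an Id gene that many stimuli regulate, was not called in any comparison of treatments. At 4 hrs it was at 75.1, 89.8, 88.3 and 83.4 CPM untreated and at 73.4, 74.5, 74.4 and 75.7 CPM after Activin-A. IFN-γ wells were at 75.4, 65.0, 89.1 and 72.4 CPM and wells with both at 64.9, 65.3, 68.1 and 69.9 CPM. Of the Activin-A wells, 3 lay below every untreated well and replicate 4 lay within the untreated range, with log2FC -0.17 alone (95% interval -0.40 to 0.07, adjusted p = 0.636) and -0.15 on IFN-γ (95% interval -0.39 to 0.10, adjusted p = 0.808). At 12 hrs it was at 62.9, 60.5, 62.3 and 47.6 CPM untreated and at 63.0, 62.4, 32.9 and 38.1 CPM after Activin-A. IFN-γ wells were at 38.6, 45.7, 62.2 and 46.2 CPM and wells with both at 40.4, 59.3, 61.5 and 45.1 CPM. These groups overlapped throughout, with log2FC -0.23 for Activin-A alone (95% interval -0.54 to 0.09, adjusted p = 0.650), 0.10 for Activin-A on IFN-γ (95% interval -0.24 to 0.44, adjusted p = 0.920) and an interaction of 0.32 (95% interval -0.14 to 0.78, adjusted p = 0.879). With 1 well left out at a time, the log2FC at 12 hrs was -0.38 to -0.08 for Activin-A alone and 0.0016 to 0.25 on IFN-γ.

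**Figure D2:**
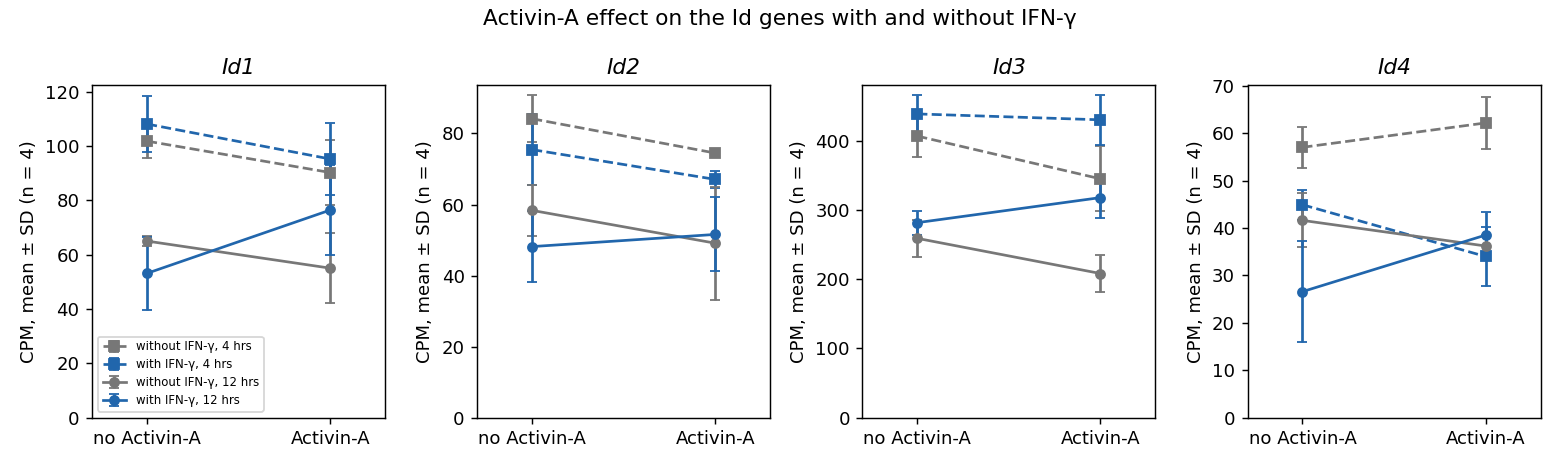
Mean CPM ± SD (n = 4 wells) of Id1 to Id4 without and with Activin-A, in the absence (grey) and presence (blue) of IFN-γ, at 4 hrs (dashed) and 12 hrs (solid). At 12 hrs the grey lines fall and the blue lines rise in all 4 panels; the difference between the slopes did not pass the adjusted test for any of them.

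At 12 hrs the log2FC with Activin-A alone was thus below 0 for all 4 Id genes and above 0 for all 4 in the presence of IFN-γ, and the interaction had an unadjusted p below 0.05 for Id1, Id3 and Id4, 3 of the 6 tested genes, beside 6.82% of all tested genes. The interaction is the difference of these 2 contrasts and so is built from the same wells, and none of the 6 genes was called in it by edgeR or by DESeq2 (3 of 6 had an unadjusted p below 0.05 with DESeq2). Averaged over cells with and without IFN-γ, the Activin-A effect at 12 hrs was 0.15 for Id1, -0.06 for Id2, -0.08 for Id3 and 0.19 for Id4, with intervals that reached from -0.29 to 0.46, and 0 of the 6 genes were called or had an unadjusted p below 0.05 by edgeR or DESeq2, beside 13.6% of all tested genes at an unadjusted p below 0.05 with edgeR and 3.88% called. At 4 hrs it was -0.18 for Id1, -0.16 for Id2, -0.14 for Id3 and -0.12 for Id4, and 0 of the 6 genes were called (2 at an unadjusted p below 0.05 with edgeR, and 1 such and 0 called with DESeq2), beside 13% of all tested genes at an unadjusted p below 0.05 with edgeR and 3.62% called. The change of this averaged effect from 4 to 12 hrs was 0.33 for Id1 (unadjusted p = 0.0191, adjusted p = 0.570), and it was called for 0.107% of genes and for none of the 6 by edgeR or DESeq2 (1 at an unadjusted p below 0.05 with each, beside 7.24% of all tested genes with edgeR). With 1 well left out at a time, the averaged effect at 12 hrs was 0.05 to 0.21 for Id1 and 0.09 to 0.32 for Id4. For Id2 the range was -0.14 to 0.02 and for Id3 -0.11 to -0.04.

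Smad1 and Smad5 encode the proteins that carry the BMP signal. Smad1 was at 53.3, 40.1, 39.3 and 43.7 CPM untreated and at 39.3, 68.4, 50.8 and 33.3 CPM with Activin-A at 4 hrs, and at 46.8, 51.6, 49.2 and 53.4 CPM untreated and at 47.1, 36.5, 50.3 and 40.6 CPM with Activin-A at 12 hrs. Activin-A wells spread on both sides of the untreated wells at 4 hrs and overlapped them at 12 hrs. With IFN-γ Smad1 was between 32.9 and 51.1 CPM at 4 hrs and between 44.6 and 64.4 at 12 hrs, and with both factors between 32.5 and 48.3 and between 42.8 and 53.7. The averaged Activin-A effect on Smad1 was -0.04 at 4 hrs (95% interval -0.29 to 0.21) and -0.19 at 12 hrs (95% interval -0.41 to 0.02, adjusted p = 0.447), so that the interval at 12 hrs reached from a decrease by 24.7% to an increase by 1.64%.

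Smad5 was at 89.0, 89.8, 79.6 and 75.4 CPM untreated and at 88.4, 97.3, 78.8 and 84.7 CPM with Activin-A at 4 hrs, and at 84.4, 80.1, 78.7 and 85.9 CPM untreated and at 94.9, 109.5, 80.1 and 76.3 CPM with Activin-A at 12 hrs. The groups overlapped at both times. With IFN-γ Smad5 was between 66.4 and 83.2 CPM at 4 hrs and between 61.4 and 98.7 at 12 hrs, and with both factors between 72.8 and 98.6 and between 60.4 and 79.6. Its averaged Activin-A effect was 0.15 at 4 hrs (95% interval -0.02 to 0.32, adjusted p = 0.484) and 0.05 at 12 hrs (95% interval -0.14 to 0.23, adjusted p = 0.897), which allows an averaged increase of at most 25.0% at 4 hrs within the interval. For both factors against IFN-γ at 4 hrs the log2FC of Smad5 was 0.25 (95% interval 0.001 to 0.50). That interval reached an increase of 41.1% (edgeR unadjusted p = 0.0489, adjusted p = 0.536). In that comparison 2 of the 6 tested genes, Id4 (lower) and Smad5 (higher), had an edgeR unadjusted p below 0.05, beside 9.3% of all tested genes. With DESeq2 it was 1 of the 6. Neither Smad1 nor Smad5 was called by edgeR or DESeq2 in any of the 12 comparisons, and over the 4 single Activin-A comparisons (alone and on IFN-γ, at both times) their intervals lay between -0.50 and 0.50. Without the library that stood apart, the log2FC with Activin-A alone at 4 hrs was 0.12 for Smad1 and 0.029 for Smad5, compared to 0.04 and 0.051 with it, and for Id2 and Id4 it was -0.16 and 0.13. These are mRNA values, and phosphorylation of the proteins was not measured in these samples.

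**Figure D3:**
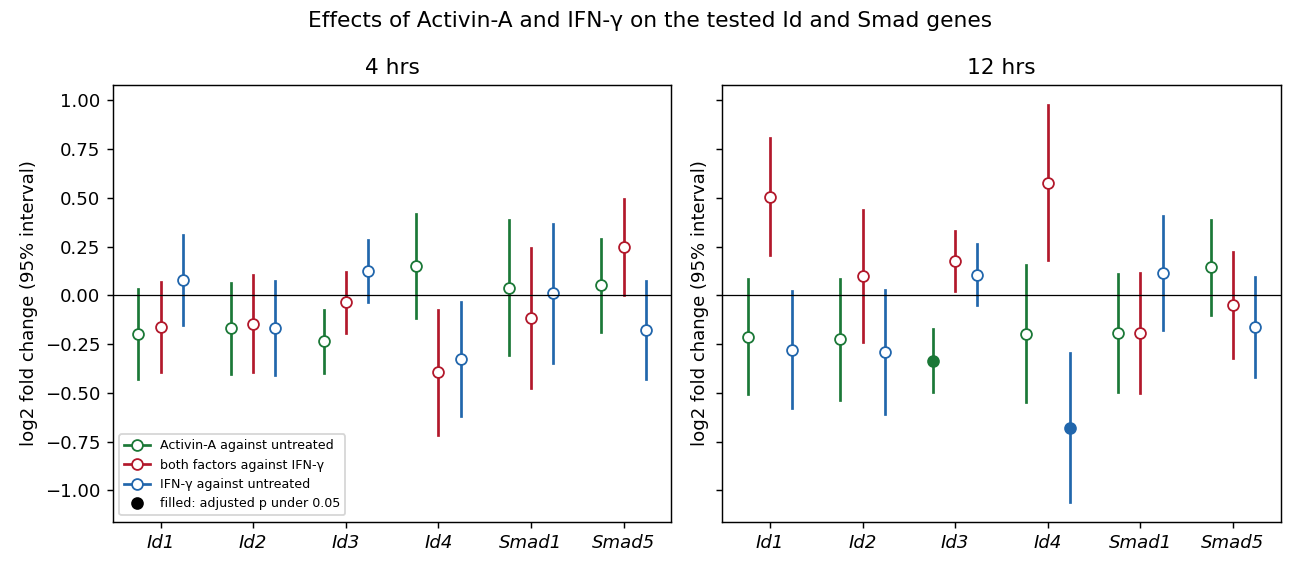
log2 fold changes with 95% intervals of the 6 tested genes at 4 hrs (left) and 12 hrs (right) for Activin-A against untreated (green), both factors against IFN-γ (red) and IFN-γ against untreated (blue); filled points have an adjusted p under 0.05. Filled points are Id3 with Activin-A (-0.33) and Id4 with IFN-γ (-0.68), both at 12 hrs.

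Smad6, the feedback inhibitor that BMP signaling induces, was close to the floor. It had 67 counts over the 32 wells, 0 to 5 in a well, was at 0 in 6 wells and above 3 counts in 6, and did not pass the filter on low counts. At 12 hrs it had 2, 2, 0 and 2 counts in untreated wells, 4, 1, 3 and 3 after Activin-A, 0, 0, 1 and 2 after IFN-γ and 2, 4, 0 and 3 after both. At 4 hrs it had 3, 0, 1 and 5 counts untreated, 4, 2, 2 and 1 after Activin-A, 0, 3, 1 and 5 after IFN-γ and 1, 5, 2 and 3 after both. The sums of 11 against 6 counts for Activin-A and of 9 against 3 for both against IFN-γ at 12 hrs lay above their references by 1.32 and 1.87 CPM on average, with two-sided exact permutation p = 0.143 and p = 0.171 over the 70 divisions of 8 wells (adjusted p = 0.684 for both over 8 comparisons, smallest p possible 0.0286). At 4 hrs the exact p were 0.943 and 0.743. With the smallest p that 4 against 4 wells allow, a single one of the 8 comparisons could not pass after adjustment, so that this test says nothing on whether Smad6 differed.

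Smad9, the third receptor-activated Smad of the branch, had 13 counts in all, with 0 in 22 of the 32 wells and at most 3 in any well, so that no well lay above the floor. The counts at 4 hrs were 0, 3, 1 and 0 untreated, 0, 2, 1 and 0 after Activin-A, 0, 0, 1 and 1 after IFN-γ and 0 in the 4 wells given both factors, and at 12 hrs each group had a single count in 1 well. Exact permutation p were between 0.429 and 1, and no fold is given.

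In untreated cells Id1, Id2 and Id3 fell between the time points. From 4 to 12 hrs Id1 fell by 0.64 (SE 0.13, 95% interval -0.91 to -0.38, edgeR adjusted p = 0.000486), Id2 by 0.51 (SE 0.14, adjusted p = 0.0134) and Id3 by 0.64 (SE 0.082, adjusted p = 5.98e-09, rank 18 of 9332). Id4 was at -0.46 (SE 0.15, adjusted p = 0.0643). These were 3 of the 6 tested genes, beside 2.57% of all tested genes called and lower and 4.90% called in either direction. All 4 untreated wells of each Id gene were lower at 12 hrs than the 4 at 4 hrs, as were 5.50% of all tested genes. The Id2 call was lost without 4 hrs replicate 2 (log2FC -0.48, adjusted p = 0.0526) or without 12 hrs replicate 4 (log2FC -0.44, adjusted p = 0.0693), and Id4 passed without the latter (log2FC -0.54, adjusted p = 0.0475). Smad1 (log2FC 0.17, 95% interval -0.15 to 0.49) and Smad5 (log2FC -0.02, 95% interval -0.27 to 0.22) showed no call. Time of exposure cannot be told apart from time in culture and from harvest in this design.

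Within the treated groups the same comparison of wells was made without a test. With Activin-A, Id1, Id2, Id3 and Id4 were lower at 12 hrs by 39.0%, 34.1%, 39.6% and 41.8%, and no well at 12 hrs reached the lowest well at 4 hrs, as for 5.22% of genes. With IFN-γ they were lower by 50.8%, 36.2%, 35.8% and 40.8%, again without overlap, as for 6.11% of genes. With both factors Id2 and Id3 were lower by 23.1% and 26.1% without overlap, as for 6.04% of genes, whereas Id1 was lower by 19.7% with overlapping wells and Id4 was higher by 13.3% with overlapping wells. Smad1, Smad5, Smad6 and Smad9 overlapped between the times in all 4 treatments.

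Other genes of both pathways were taken from lists chosen by name. Of the 20 Activin-Smad2/3 target genes, 14 could be tested at 4 hrs, and with Activin-A 7 rose and 0 fell (median log2FC 0.49, compared to -0.064 for the 6 Id and Smad genes and -0.002 for all tested genes). Pmepa1, which binds receptor-activated Smads, rose by 2.55 (adjusted p = 2.15e-26) from 55.6 to 324 CPM, and Ccn2, a matricellular protein, by 1.77. At 12 hrs 5 of 13 rose and 1 fell, among them Ccn2 (1.88) and Pmepa1 (1.87), while the matrix gene Tgfbi fell by 0.35 (adjusted p = 0.0206, and 0.127 with DESeq2). On IFN-γ, 5 of 14 rose and 1 fell at 4 hrs, and 2 of 13 rose and 1 fell at 12 hrs. DESeq2 called 5 and 2 genes of this list for Activin-A alone at 4 and 12 hrs (1 more had no adjusted p at 12 hrs), and 3 at each time on IFN-γ. The background in these comparisons was 1.64%, 2.41%, 0.81% and 1.03% of genes called in either direction. Pmepa1 and Ccn2 rose with Activin-A at both times, alone and on IFN-γ, and most other genes of the list did not pass at 12 hrs.

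Of the 21 other BMP-Smad1/5 target genes, 10 could be tested. With Activin-A 2 of 10 rose at 4 hrs, Smad7 by 0.86 (adjusted p = 0.000458) and Hes1, a Notch and BMP target that represses transcription, by 0.51 (adjusted p = 0.0198). DESeq2 called 1 of the 10, and the Hes1 call at 4 hrs was lost (adjusted p = 0.193). Smad7 is also on the Smad2/3 list and so is not particular to the BMP branch. At 12 hrs 1 of 10 rose, Hes1 by 0.66 (adjusted p = 0.000915), from 51.6 ± 6.26 to 83.1 ± 12.6 CPM (SD, n = 4). On IFN-γ Hes1 rose by 0.79 at 4 hrs (adjusted p = 0.00299) and 0 of the 10 genes were called at 12 hrs by edgeR or DESeq2 (2 and 1 at an unadjusted p below 0.05, beside 10.3% of all tested genes with edgeR). IFN-γ itself lowered Hes1, by 0.98 at 4 hrs and by 0.97 at 12 hrs. At 12 hrs Hes1 rose with Activin-A alone and Id3 fell.

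Among extracellular regulators, Fstl1, a follistatin-related secreted protein, rose with Activin-A by 0.55 alone and by 0.36 on IFN-γ at 12 hrs. Fst, which encodes follistatin and binds Activin-A as well as some BMPs, fell with Activin-A alone by 0.58 at 4 hrs and by 0.25 at 12 hrs, and rose with IFN-γ by 1.34 and 1.41, from 610 ± 19.3 to 1618 ± 53.1 CPM at 12 hrs (SD, n = 4). On IFN-γ Fst was not called with Activin-A at either time, at 1687 CPM against 1517 with both factors at 4 hrs and 1618 against 1640 at 12 hrs. The interaction for Fst at 4 hrs was 0.42, the lowest p of that comparison, and did not pass (adjusted p = 0.278).

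Of the ligands, 2 of 13 could be tested. Bmp2 was at 149 ± 10.3 CPM untreated, 146 ± 16.4 after Activin-A, 230.1 ± 16.6 after IFN-γ and 184 ± 14.9 after both at 12 hrs (SD, n = 4). It rose with IFN-γ by 0.61 (adjusted p = 7.53e-09) and fell with Activin-A on IFN-γ by 0.31 (adjusted p = 0.0385), a call lost with DESeq2 (adjusted p = 0.115). Bmp4 fell with IFN-γ by 0.82 at 12 hrs (adjusted p = 0.0174) and rose by 1.22 from 4 to 12 hrs in untreated cells, where Bmp2 fell by 0.30. With DESeq2 the fall of Bmp4 with IFN-γ (adjusted p = 0.186) and that of Bmp2 over time (adjusted p = 0.0834) did not pass. Of the 7 receptors and co-receptors tested, the co-receptor Rgmb fell with Activin-A by 0.35 at 4 hrs and by 0.34 at 12 hrs, and the type II receptor Bmpr2 rose by 0.63 at 12 hrs, a call lost with DESeq2 (adjusted p = 0.0713), with 0 of 7 called on IFN-γ at either time by edgeR or DESeq2 (2 at an unadjusted p below 0.05 with edgeR at each time, beside 9.3% and 10.3% of all tested genes). On IFN-γ Rgmb was at 270.4 CPM, against 223 with both factors, at 4 hrs, and at 259.7 against 217.8 at 12 hrs. Its averaged effect was -0.32 at 4 hrs (edgeR adjusted p = 6.16e-05) and -0.29 at 12 hrs (adjusted p = 4.84e-05), called by DESeq2 too. Averaged at 4 hrs, the co-receptor Eng rose by 0.47 (edgeR adjusted p = 0.00266, DESeq2 0.0241). Bmpr2 rose by 0.41 there, a call lost with DESeq2 (adjusted p = 0.187). Of the 3 Activin and TGF-β receptors tested, 0 were called or had an unadjusted p below 0.05 for Activin-A alone or on IFN-γ, by edgeR or DESeq2. Of 7 other Smads and Smad ubiquitin ligases, Smad7 was the 1 called for Activin-A at 4 hrs. Of the 9 partners of Id proteins, such as the E proteins Tcf3, Tcf4 and Tcf12, 0 were called for Activin-A alone or on IFN-γ by edgeR or DESeq2 (4 at an unadjusted p below 0.05 with edgeR for Activin-A alone at 12 hrs, beside 11.3% of all tested genes, and at most 1 elsewhere), and Tcf12 fell by 0.23 in the averaged effect at 12 hrs (adjusted p = 0.0222), a call lost with DESeq2 (adjusted p = 0.101). The counts cannot tell a change in every cell from a change in the share of cells that express a gene.

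**Figure D4:**
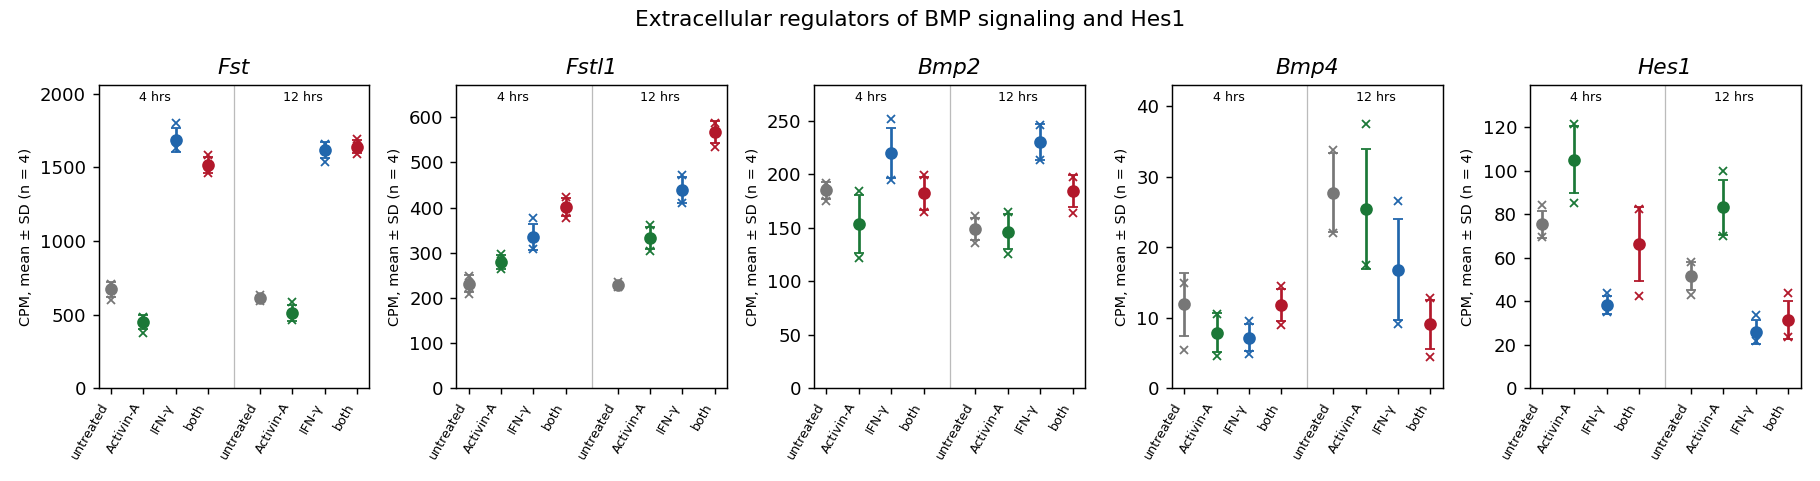
Mean CPM ± SD (n = 4 wells) with the lowest and highest well as crosses for 4 secreted regulators of BMP signaling and for Hes1, by treatment, at 4 and 12 hrs. Fstl1 is higher with Activin-A at 12 hrs, Fst is higher with IFN-γ, and Hes1 is lower with IFN-γ, reaching 25.9 CPM with IFN-γ at 12 hrs. Hes1 is higher with Activin-A alone at both times and on IFN-γ at 4 hrs. The call for Activin-A alone at 4 hrs was lost with DESeq2 (adjusted p = 0.193). On IFN-γ at 12 hrs Hes1 was not called with Activin-A.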

How the data were processed

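BRB-seq libraries of 32 wells were sequenced. The authors deposited raw counts per gene, which were integers without normalization; the submitters' processing notes name STAR 2.7.10b, featureCounts, DESeq2 1.36.0 and GRCm39, while the annotation, strand setting and handling of unique molecular identifiers are not given in the sources used here. Duplicate reads and reads of related genes therefore stayed as counted. Symbols came from GENCODE M21, and 12437 of 12451 identifiers matched. Among 50-base words of the transcripts of the 8 genes, at most 2.08% (Id4) were shared with another gene.

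Genes were filtered with filterByExpr (9137 left at 4 hrs, 8971 at 12 hrs, 9332 over both), scaled by TMM and tested with edgeR 4.0.16's quasi-likelihood test (R 4.3.3) over the 16 wells of a time point, or all 32 for contrasts between times, with Benjamini-Hochberg adjustment and a threshold of 0.05. Smad6 and Smad9 did not pass the filter and were compared by exact permutation. Alternatives were DESeq2 1.42.0's Wald test, which the study used, RLE normalization, no filter, at least 10 counts in every well, the replicate number as a block, all 32 wells, and each well left out. The main edgeR fit, that with the replicate block and DESeq2 were first tested on simulated counts of the 12 hrs wells. Only Activin-A and IFN-γ against untreated were simulated. The other alternatives, the 4 hrs wells and the other contrasts were not. Plots used Python 3.11.15 with matplotlib 3.10.9. The 8 genes, the pathway lists and the tests were chosen with earlier results of these data known. The tested genes were fitted in every comparison, and not all of these values are printed. Smad6 and Smad9 were compared only for Activin-A alone and on IFN-γ, at each time. From each list the called genes were reported, at most the 3 with the largest change per direction, narrowed further after their values were seen. Cth was chosen after its value was seen. Some genes of the lists are not reported here.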

Additional observations from a re-analysis of the deposited data

Results flagged for a closer look

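In each of 64 groups of 4 wells (8 genes in 8 groups) the highest and the lowest well were compared with the rest of the group, and 7 stood apart by Dixon's ratio. Chance gives about 1 in 20 groups for continuous values, a rate that does not hold for the 4 Smad9 groups below, where 1 count among zeros gives the highest possible ratio by construction. Id1 in Activin-A replicate 1 at 12 hrs was at 74.2 CPM, above the other 3 wells of its group at 46.7 to 49.9 CPM. Id2 in untreated replicate 4 at 12 hrs was at 47.6 CPM, below the others at 60.5 to 62.9. Id4 in IFN-γ replicate 1 at 4 hrs was at 40.1 CPM, below the others at 46.0 to 46.8. The other 4 were wells at 12 hrs in which Smad9 had 1 count and the rest of the group 0: 0.890 CPM untreated, 0.798 CPM with Activin-A, 1.04 CPM with IFN-γ and 1.12 CPM with both factors.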

How the results depend on the processing

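The 6 tested genes in 12 comparisons gave 72 log2 fold changes, and over 1332 alternative values 1278 kept their direction and their side of the threshold, 35 changed sign, 7 lost and 12 gained the threshold; 0 of the sign changes were among called results. With DESeq2 the counts of called genes fell to 84 and 136 for Activin-A at 4 and 12 hrs, 44 and 61 for Activin-A on IFN-γ, 174 and 180 for the averaged effect, 0 for the interaction at 12 hrs, 284 for untreated 12 against 4 hrs and 5 for the change of the averaged effect. Without the filter the interaction called 1 gene at 4 hrs and 8 at 12 hrs, and with all 32 wells 1 at 4 hrs. With all 32 wells Smad1 changed sign for IFN-γ at 4 hrs (-0.00032) and for the interaction at 12 hrs (-0.0016). The cause of these differences was not tested. Leaving out each well in turn gave 110 to 163 and 170 to 201 called genes for Activin-A at 4 and 12 hrs, 47 to 72 and 62 to 91 on IFN-γ, 265 to 351 and 286 to 342 for the averaged effect, 412 to 439 and 689 to 771 for IFN-γ, 0 to 1 and 0 to 6 for the interaction, 302 to 374 for 12 against 4 hrs and 6 to 16 for the change of the averaged effect. Over these fits the sign changes were of values near 0: at 4 hrs Smad1 with Activin-A (-0.10 to 0.16), averaged (-0.11 to 0.025) and with IFN-γ (-0.086 to 0.16), Id3 with Activin-A on IFN-γ (-0.077 to 0.014) and the interaction for Id1 (-0.049 to 0.11) and Id2 (-0.051 to 0.093); at 12 hrs Smad5 with Activin-A on IFN-γ (-0.12 to 0.12) and averaged (-0.0019 to 0.13), averaged Id2 (-0.14 to 0.016) and the interaction for Smad1 (-0.071 to 0.10); and Smad5 in untreated cells over time (-0.073 to 0.0080).

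Wells of the same replicate number did not deviate together (mean correlation -0.00023, compared to 8.1e-05 for other numbers; 6 of 32 wells correlated best with their own number), so the numbers are only names. In fits with that number as a block, 147 and 218 genes were called for Activin-A at 4 and 12 hrs and 822 for IFN-γ at 12 hrs, and no call among the 6 genes changed (Id3 with Activin-A at 12 hrs adjusted p = 0.0054, Id4 with IFN-γ adjusted p = 0.00991). Depth limits Smad6 and Smad9, and at the depth of Id1, Id2, Id4, Smad1 and Smad5 single comparisons had log2 SEs from 0.115 to 0.201.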

Other observations

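Over the 32 wells, after each gene's mean within a time point was subtracted, the genes whose log2 CPM followed Id3 most closely among 8627 genes were Tspan4 (r = 0.791), Siva1 (r = 0.774) and Ldha (r = 0.756). For Id4 they were Olfml2b (r = 0.714), Cdr2l (r = 0.675) and Ppan (r = 0.658), for Smad5 Nid1 (r = 0.667), Cbx5 (r = 0.648) and Tnpo3 (r = 0.632), for Id1 Scrn3 (r = 0.654), Ndufs7 (r = 0.614) and Jagn1 (r = 0.601), for Id2 Surf2 (r = 0.638), Atp6v1c1 (r = 0.628) and Nfatc3 (r = 0.618), and for Smad1 Rnf113a2 (r = 0.591), Smim13 (r = 0.578) and Dph5 (r = 0.574). These are descriptions across wells that share library preparation and treatments, and no test was made. Among the genes themselves, Id1 and Id3 had r = 0.439, Id1 and Id2 r = 0.372, Id2 and Id3 r = -0.0152 and Id3 and Smad5 r = -0.474, so that the Id genes did not vary as 1 block within a time point.

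IFN-γ changed further secreted and membrane regulators of the BMP pathway. Twsg1, which binds BMPs with chordin, rose by 0.43 at 4 hrs and by 0.56 at 12 hrs, Fstl1 rose by 0.54 and 0.95, and the antagonist Grem1 fell by 0.37 at 4 hrs (adjusted p = 0.000445). The co-receptors Rgma and Eng rose by 0.95 and 0.47 at 12 hrs. With DESeq2 the calls of Twsg1 at 4 hrs (adjusted p = 0.0824) and of Eng at 12 hrs (adjusted p = 0.178) were lost. In these comparisons 5.06% and 9.25% of all tested genes were called.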
